A study of Rattus norvegicus with 6 samples.

Results

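The interleukin 6 family is a set of related cytokines whose receptors share the chain gp130, encoded by Il6st. The genes followed here were the ligands Il6, Lif, Il11 and Clcf1, the receptor chains Il6st, Lifr, Osmr and Il11ra1, the transcription factor Stat3 and the feedback inhibitor Socs3. They were chosen by gene symbol, and all probe sets with 1 of these symbols in the platform annotation were taken: 14 probe sets for 9 genes, of 31042 probe sets that were not controls. Osmr, the receptor chain for oncostatin M, had no probe set under its symbol and was not analysed here.

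Some ligands of this family bind gp130 together with a second signalling chain (Lifr for Lif, Osmr for oncostatin M). Some first dock on a binding chain without signalling activity (Il11ra1 for Il11, Il6r for Il6). Janus kinases bound to the receptor then phosphorylate Stat3, which enters the nucleus and switches on genes that include Socs3, whose product blocks the receptor again. In astrocytes this pathway is known for its part in astrocyte differentiation and in the reactive response to injury, with Gfap among the genes it raises.

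The cells were primary rat spinal cord astrocytes, grown to confluent monolayers and kept in supplemented L15 medium for 24 hours before RNA was taken. The hSOD1G93A cultures came from transgenic rats that carry human superoxide dismutase 1 with the G93A substitution, which is linked to familial amyotrophic lateral sclerosis, and the controls, NonTG, were nontransgenic. Each group had 3 arrays, lettered A, B and C in the titles (Affymetrix Rat Genome 230 2.0, 5 ug of total RNA per array). Age, the number of animals behind a culture and the promoter of the transgene are not given in the sources used here, and no label says that the arrays of a group are separate cultures, so p-values measure the spread between these arrays, which may be technical.

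Values are MAS5 signals, a linear intensity scaled by the authors to a common mean on each array. A probe set was tested if its mean log2 signal lay above the 40th percentile of all probe sets, a signal of 66.7, which 18625 probe sets passed. Probes bind with different strength, so levels are not read as amounts of RNA between probe sets. Signals summed over a list of markers serve to compare arrays, not cell types. Median signals per array ran from 130.5 to 136.8 in hSOD1G93A and from 129.3 to 135.9 in NonTG. The ratio of 3' to 5' signal, which reflects RNA integrity, was 1.002 ± 0.0062 in hSOD1G93A and 0.988 ± 0.030 in NonTG for Gapdh (SD, n = 3 each, exact permutation test, two-sided p = 0.7), and for beta-actin 1.117 ± 0.021 in hSOD1G93A and 1.16 ± 0.029 in NonTG (exact permutation p = 0.2, where 0.1 is the smallest possible). Sod1, read by a probe set designed for the rat transcript, had signals of 9781, 10860 and 10510 in hSOD1G93A against 8982, 8855 and 9430 in NonTG, and whether it also reads the human transgene was not tested.

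Astrocyte markers were bright: 9 of the 10 on the array passed the filter, with Gfap at a mean log2 signal of 13.91 in hSOD1G93A and 14.02 in NonTG and Aqp4, a water channel, at 14.04 in hSOD1G93A and 13.92 in NonTG. Of 15 microglia and macrophage markers on the array 3 passed, and their summed signal over all 15 was 517.8 to 791.3 in hSOD1G93A and 451.8 to 703.1 in NonTG. Fibroblast and meningeal markers passed the filter in 9 of 9, with a summed signal, carried mostly by collagens, Fn1 and Postn, of 54180 to 76019 in hSOD1G93A and 71943 to 76416 in NonTG. These ranges overlap, and of the 9 differences 4 were above 0 and 5 below. Col1a2 had all hSOD1G93A arrays below all NonTG arrays, as did 3.51% of all tested probe sets. Among the higher ones, Dcn, decorin, had 666.7, 283.2 and 348.6 in hSOD1G93A against 59.06, 92.29 and 63.94 in NonTG (difference 2.52, SE 0.32, limma adjusted p = 0.400). Aldh1a2 differed by 1.15 (SE 0.23, limma adjusted p = 0.9997). Neither Dcn nor Aldh1a2 passed, and both had all hSOD1G93A arrays above all NonTG arrays, as did 4% of all tested probe sets. In bulk RNA, fewer cells of a type and less RNA per cell cannot be told apart.

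Il6 is shown with the DNA before its start because it had the largest difference between the genotypes of the tested members. The window holds the 250 bases before the start annotated by RefSeq on the minus strand of GRCr8, chr4:5894576-5894825, 5′ to 3′, and the capitals mark, in this order, the matches to a cAMP response element (TGACGTCA), a C/EBP motif (TTNNGNAA) and the kappa-B consensus. C/EBP factors and NF-kB are the factors through which interleukin 1 and tumour necrosis factor are known to raise Il6.
Il6: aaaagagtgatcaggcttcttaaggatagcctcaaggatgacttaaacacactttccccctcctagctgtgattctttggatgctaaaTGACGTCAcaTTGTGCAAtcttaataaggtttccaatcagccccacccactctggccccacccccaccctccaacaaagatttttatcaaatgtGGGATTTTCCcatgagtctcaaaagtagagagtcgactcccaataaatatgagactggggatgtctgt

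The cAMP response element began 162 bases before the start, the C/EBP match 152 and the kappa-B match 68, and none of the 3 overlapped. Both strands were searched, with TGANTCA for AP-1 and TTCNNNGAA for STAT factors besides. Of 33469 rat promoters in the RefSeq table, 1.59% held the cAMP response element in the same window, 37.2% the C/EBP motif, 6.33% the kappa-B consensus, 6.34% the AP-1 motif and 7.67% the STAT motif. Windows were given for 7 of the 10 genes: Il11 and Osmr held an AP-1 match, Il6st 2 C/EBP matches, Lifr a C/EBP match and Socs3 a kappa-B match, while Stat3 held none of the 5 motifs. No window of the 7 held the STAT motif. These are matches of letters, not sites shown to be bound.

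No member passed the test between the genotypes. In limma, with Benjamini-Hochberg adjustment over all tested probe sets, 0 of the 9 member probe sets past the filter had an adjusted p below 0.05, against 0% of all 18625. At an unadjusted p below 0.05 it was 1 of 9, Il11ra1, against 2.54% of all. The 9 probe sets stood for 5 genes (Il6, Il6st, Il11ra1, Stat3 and Socs3), and 6 of the 9 differences were below 0. Their median difference, hSOD1G93A minus NonTG on the log2 scale, was -0.023, beside 0.0070 over all tested probe sets, and the median size was 0.079 beside 0.10.

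**Figure D1:**
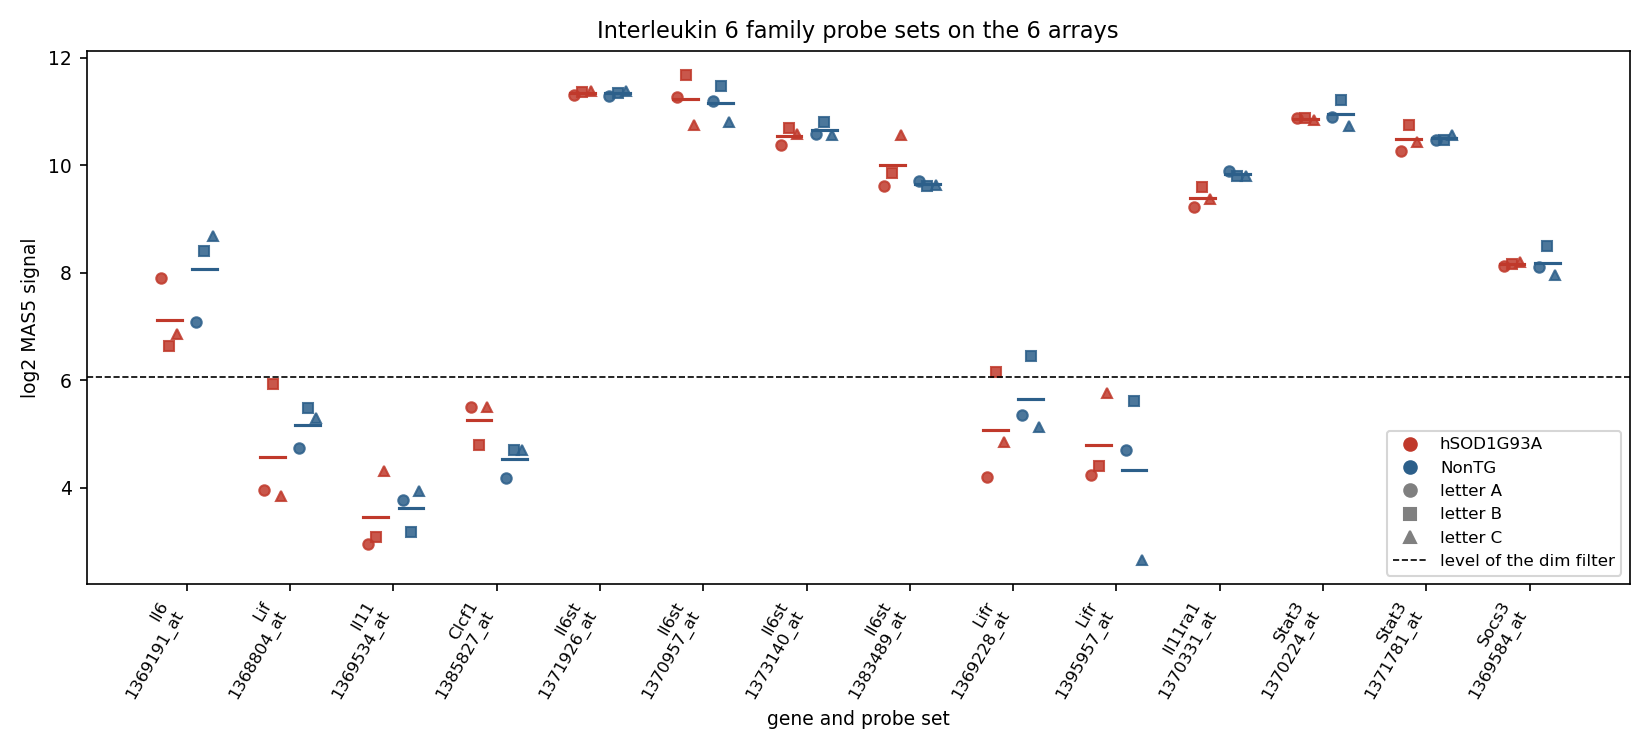
Log2 MAS5 signal of the 14 probe sets (y axis) by gene and probe set (x axis), hSOD1G93A left and NonTG right of each tick, with circles, squares and triangles for letters A, B and C and a bar at the group mean (n = 3). The 5 probe sets of Lif, Il11, Clcf1 and Lifr have their means below the dashed level of the filter, a signal of 66.7, while those of Il6st, Il11ra1 and Stat3 are bright and Il6 is spread widely in both groups.

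Among the ligands, Il6 was the only one past the filter. Its probe set, 1369191_at, gave signals of 238.8, 99.3 and 115.6 on the hSOD1G93A arrays A, B and C, against 136.3, 339.4 and 412.1 on the NonTG arrays A, B and C. The groups overlap: NonTG B and C are highest, hSOD1G93A A comes next, above NonTG A, and hSOD1G93A B and C are lowest. The mean log2 signal was 7.13 ± 0.68 in hSOD1G93A and 8.06 ± 0.85 in NonTG (SD, n = 3 each), a difference of -0.93 (SE 0.44, 95% interval -1.93 to 0.064) that did not pass (limma adjusted p = 0.9997).

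In linear terms the Il6 signal in hSOD1G93A was 0.524 times that in NonTG, with a 95% interval of 0.262 to 1.05. Only 0.413% of the tested probe sets had a larger difference in either direction, and 2.01% a larger standard error. Within the letters the Il6 difference was 0.81 under A, -1.77 under B and -1.83 under C, so that the arrays lettered A had the other sign. It was -1.32 without hSOD1G93A A, -1.42 without NonTG A and -0.62 without NonTG C, and none of these passed.

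The other ligands were dim. Lif, leukaemia inhibitory factor, which acts through Lifr and gp130 (1368804_at), had signals of 15.6, 60.6 and 14.4 in hSOD1G93A against 26.6, 44.9 and 39.2 in NonTG. Il11 (1369534_at) had 7.74, 8.50 and 19.95 in hSOD1G93A against 13.6, 9.04 and 15.4 in NonTG. Both overlap between the groups, and all values lie under the 66.7 of the filter, where a signal may be background.

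Clcf1, cardiotrophin-like cytokine factor 1, a ligand of the ciliary neurotrophic factor receptor, was the dim member whose groups did not overlap. The signals of its probe set, 1385827_at, were 45.5, 27.8 and 45.3 in hSOD1G93A against 18.1, 26.1 and 25.9 in NonTG. The lowest hSOD1G93A value is close to the highest NonTG values, and all 6 are under the filter. Of the probe sets past the filter 4% had all hSOD1G93A arrays higher, and the share among dim ones was not counted. In a fit without the filter the difference was 0.74 (SE 0.56, 95% interval -0.52 to 2.00, limma adjusted p = 0.9998).

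Of the receptor chains, Il11ra1, the binding chain for interleukin 11, had the smallest p of the members (unadjusted p = 0.0048). Its probe set 1370331_at gave 597.3, 769.9 and 662.7 in hSOD1G93A against 944.3, 889.5 and 894.9 in NonTG. All 3 hSOD1G93A arrays lie below all 3 NonTG arrays, and the NonTG values lie close together. The mean log2 signal was 9.39 ± 0.18 in hSOD1G93A and 9.83 ± 0.047 in NonTG (SD, n = 3 each), a difference of -0.43 (SE 0.12, 95% interval -0.70 to -0.17), or 0.740 times the NonTG level.

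The Il11ra1 difference did not pass the adjusted threshold (0.9997 in limma, and 0.834 with the letter as a replicate block). Within the letters it was -0.66 under A, -0.21 under B and -0.43 under C. These share a sign by necessity, since the groups do not overlap. Il11ra1 was the 1 member of 9 past the filter whose groups did not overlap, where 7.51% of all tested probe sets had no overlap and 3.51% had hSOD1G93A lower. A larger difference in either direction was seen in 5.05% of the tested probe sets. Its ligand Il11 stayed near the bottom of the scale in both groups.

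Il6st, the gp130 chain shared by the whole family, was read by 4 bright probe sets, with different patterns over the arrays. Probe set 1371926_at was nearly flat, at 2530, 2626 and 2659 in hSOD1G93A against 2497, 2596 and 2646 in NonTG. Its difference was 0.014 (SE 0.074, 95% interval -0.15 to 0.18), which leaves room for 0.899 to 1.13 times the NonTG level. Its standard error was smaller than those of 97.7% of the tested probe sets.

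Probe set 1383489_at of Il6st had signals of 779.7, 928.4 and 1501 in hSOD1G93A against 833.1, 786.1 and 795.9 in NonTG. The value of hSOD1G93A C is far above the other 5, and hSOD1G93A A is the lowest of all. The difference was 0.35 (SE 0.21, 95% interval -0.11 to 0.82, limma adjusted p = 0.9997), and 0.080 without hSOD1G93A C. Probe set 1373140_at had 1320, 1653 and 1534 in hSOD1G93A against 1537, 1783 and 1510 in NonTG, with overlap and a difference of -0.10 (SE 0.11).

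The fourth Il6st probe set, 1370957_at, did not separate the genotypes but differed between the letters. Its signals were 2460, 3271 and 1708 in hSOD1G93A A, B and C against 2335, 2827 and 1793 in NonTG A, B and C. In both genotypes B is highest, A is between and C is lowest. Averaged over the genotypes the letters had mean log2 signals of 11.23 (A), 11.57 (B) and 10.77 (C), a range of 0.80 or 1.74-fold, and the moderated F test of the letters passed (limma adjusted p = 0.016).

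This was 1 of 9 member probe sets called for the letters, where 1.05% of all tested probe sets were called, and 6.16% had a larger range. The genotype difference of the same probe set was 0.072 (SE 0.23, 95% interval -0.45 to 0.59), with an adjusted p of 0.9997, and of 0.936 with the letter as a replicate block. The other 3 Il6st probe sets were not called for the letters (adjusted p of 0.365 to 0.831), and whether the probe sets differ from each other in this was not tested. Without the intensity trend in the variance model the call was lost (adjusted p = 0.342), as were all calls for the letters. Leaving out any single array leaves 1 array under its letter, and calls for the letters then rose over all tested probe sets. The range of 1370957_at was then 0.69 to 0.90.

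What the letters stand for is not given in the labels. Some markers of other cell types also differed between them. Called were 2 of 9 fibroblast and meningeal markers (Col3a1 and Fn1, both highest under A in each genotype). So were 1 of 3 endothelial ones (Eng) and 1 of 8 pericyte ones (Rgs5). Both were lowest under B in each genotype, where Il6st 1370957_at was highest. The oligodendrocyte list had 1 of 5 called: Mbp, myelin basic protein. It had 2145, 2862 and 790.4 in hSOD1G93A A, B and C against 1501, 1089 and 592.1 in NonTG A, B and C. Mbp was lowest under C like Il6st 1370957_at but not the other Il6st probe sets, and in NonTG it was highest under A. In its list the uncalled Mag was also lowest under C in each genotype, Cnp and Olig1 were lowest under A, and Ugt8 had no common order. Of the astrocyte markers 0 of 9, of the neuron markers 0 of 8 and of the microglia markers 0 of 3 were called. Over all tested probe sets the share was 1.05%. The part of these cell types in the Il6st result was not tested.

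**Figure D2:**
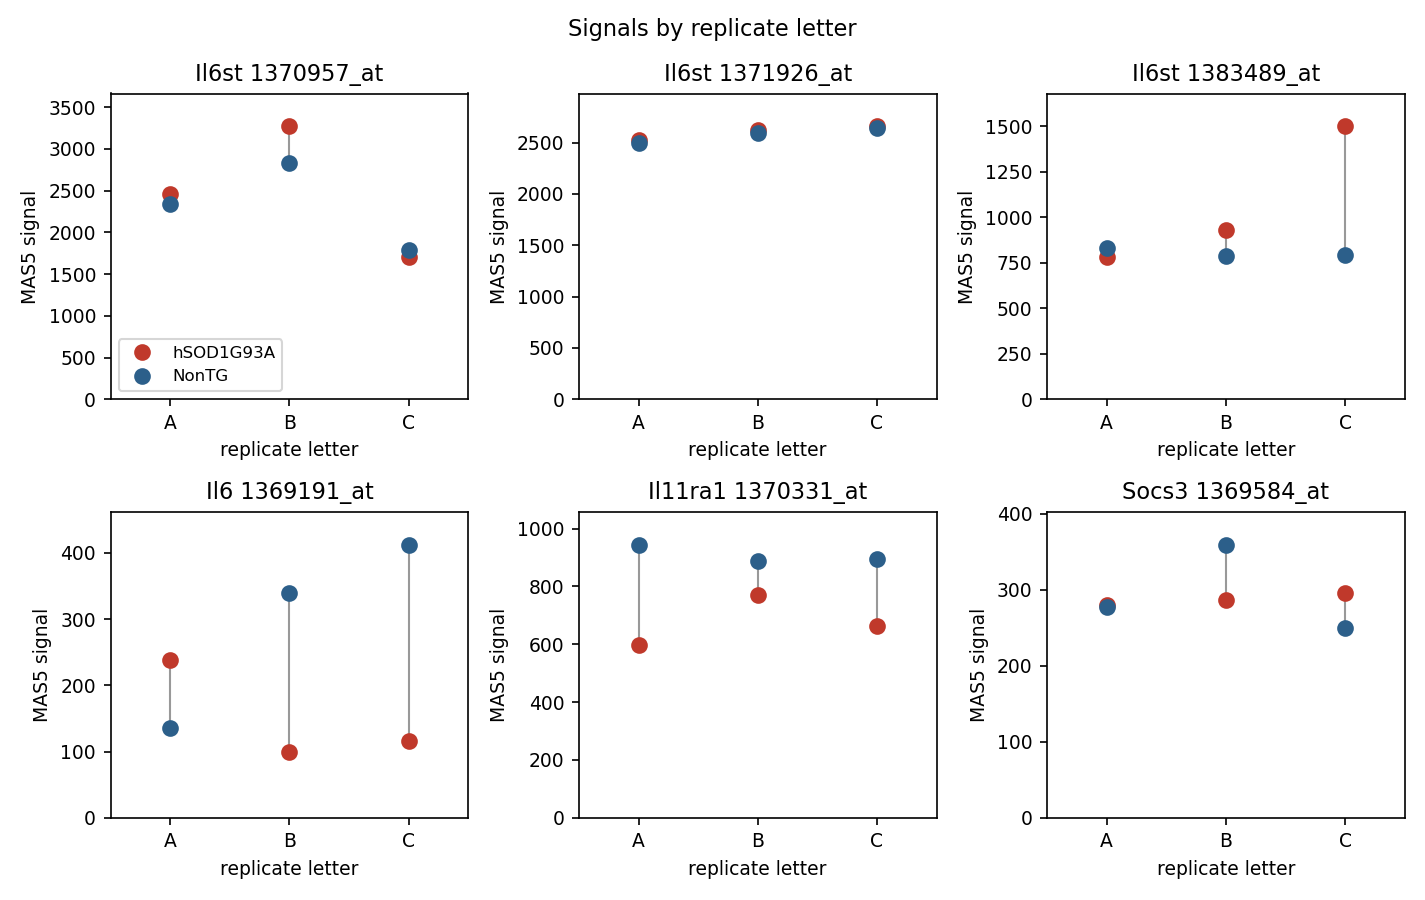
MAS5 signal (y axis, linear, from 0) by replicate letter (x axis) for 3 probe sets of Il6st and for Il6, Il11ra1 and Socs3, with hSOD1G93A and NonTG as points joined within a letter. Il6st 1370957_at runs high at B and low at C in both genotypes, Il6st 1371926_at is flat, the Il6 points change places between A and the other letters, and Il11ra1 is lower in hSOD1G93A under each letter.

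Lifr, the signalling chain for Lif, was dim on both of its probe sets. Probe set 1369228_at had 18.4, 71.1 and 28.8 in hSOD1G93A against 40.8, 87.4 and 35.2 in NonTG, with B highest in both genotypes and above the filter level there. Probe set 1395957_at had 18.8, 21.1 and 54.3 in hSOD1G93A against 25.9, 48.8 and 6.32 in NonTG, with no common order. Neither had a mean past the filter, and the difference changed sign between them (-0.58, SE 0.64, and 0.48, SE 0.86, without the filter).

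Stat3, the transcription factor downstream of gp130, was read by 2 bright probe sets. On 1370224_at the signals were 1890, 1890 and 1820 in hSOD1G93A against 1914, 2373 and 1687 in NonTG. On 1371781_at they were 1230, 1715 and 1381 in hSOD1G93A against 1413, 1409 and 1514 in NonTG. The groups overlap on both, and each probe set has 1 array that stands above the others, NonTG B on the first and hSOD1G93A B on the second.

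The Stat3 differences were -0.079 (SE 0.12, 95% interval -0.35 to 0.19) and -0.016 (SE 0.12, 95% interval -0.30 to 0.26). The intervals allow 0.783 to 1.14 times the NonTG level on the first probe set and 0.814 to 1.20 times on the second. These are transcript levels and do not bear on the phosphorylation of the protein.

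Socs3, the inhibitor that Stat3 induces and a common readout of pathway activity, was read by 1369584_at. It had 279.2, 286.1 and 295.5 in hSOD1G93A against 276.9, 359.0 and 249.2 in NonTG, so that the hSOD1G93A values lie inside the NonTG range. The difference was -0.023 (SE 0.17, 95% interval -0.40 to 0.35, limma adjusted p = 0.9997), or 0.758 to 1.28 times the NonTG level. Over the 6 arrays its log2 signal ran with that of Stat3 1370224_at (Pearson r = 0.94, n = 6) but not with that of Stat3 1371781_at (r = -0.13). All of these share the arrays, and NonTG B is the highest array of both Socs3 and the first Stat3 probe set.

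**Figure D3:**
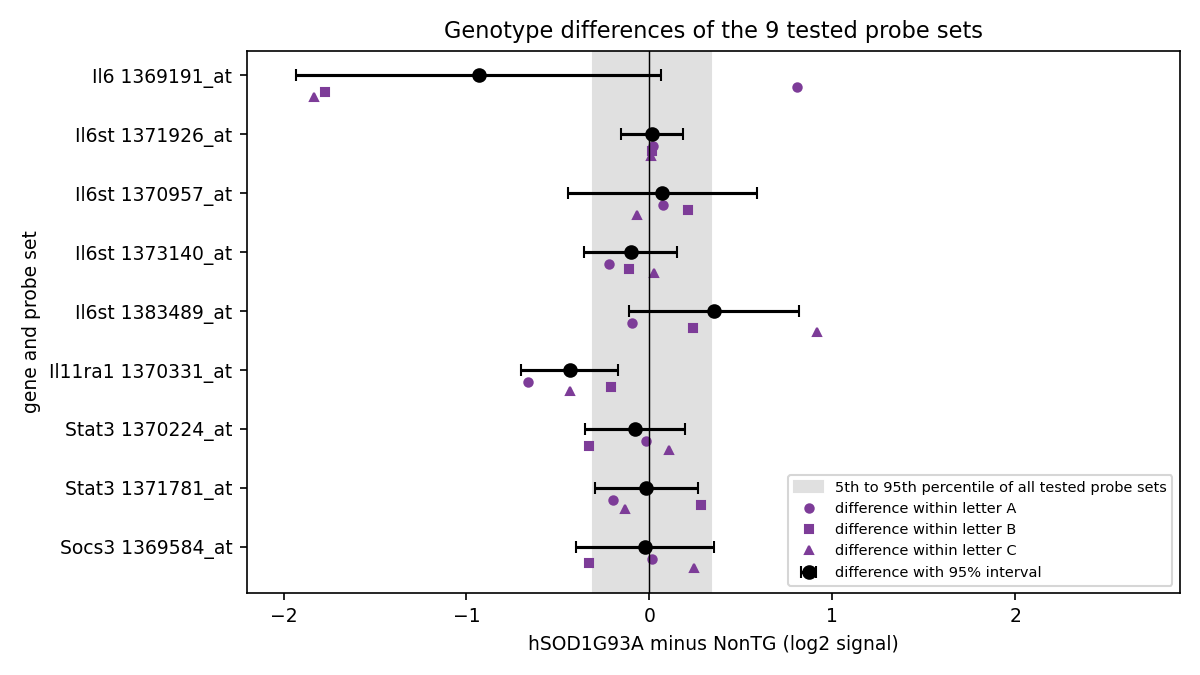
Genotype difference, hSOD1G93A minus NonTG in log2 signal (x axis), of the 9 tested probe sets (y axis), with 95% limma intervals as bars, the differences within letters A, B and C as purple symbols under each, and the 5th to 95th percentile of all tested probe sets (-0.31 to 0.33) in grey. The intervals of all but Il11ra1 cross 0, and the letters of Il6 lie on both sides of 0.

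The rest of the pathway was followed through 7 lists with 97 different genes, 86 of them on the array and 68 past the filter, each given by the probe set of highest mean signal past the filter. In limma 0 of the 68 were called in either direction, against 0% of all tested probe sets. In 5 of the 68 hSOD1G93A lay wholly below NonTG and in 0 wholly above, where the shares over all tested probe sets were 3.51% and 4%. The median difference was -0.041, with 41 of 68 below 0, beside 0.0070 and 48.0% below 0 over all. The lists were chosen with earlier results of these data known, so these counts are descriptions with no test.

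Of the other ligands, Cntf, ciliary neurotrophic factor, was the brightest in the list, with 3407, 4591 and 3914 in hSOD1G93A against 3586, 4668 and 3522 in NonTG (difference 0.018, SE 0.14). Ctf1, cardiotrophin 1, had 733.0, 1027 and 1010 in hSOD1G93A against 703.2, 905.6 and 831.1 in NonTG (difference 0.17, SE 0.16). Ebi3, a subunit of interleukin 27, differed by -0.15 (SE 0.31). Cntf is highest under B in both genotypes, and all 3 genes overlap between the genotypes. Osm, oncostatin M, the ligand of the unmeasured Osmr, was below the filter, at 9.14, 12.8 and 24.2 in hSOD1G93A against 56.6, 45.6 and 48.7 in NonTG, with no overlap between the groups. Without the filter its limma adjusted p was 0.9998, and at such signals the size of a difference is uncertain. Of the probe sets past the filter 3.51% had hSOD1G93A wholly lower, and the share among dim ones was not counted.

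The binding chains Il6r and Cntfr passed the filter with signals not far above it. Il6r, the receptor that Il6 docks on, had 61.5, 101.4 and 91.1 in hSOD1G93A against 95.01, 169.2 and 112.7 in NonTG, a difference of -0.56 (SE 0.31, 95% interval -1.26 to 0.15). It was lower in hSOD1G93A within each letter, though the groups overlap. Cntfr, the binding chain for Cntf and Clcf1, differed by -0.025 (SE 0.37).

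Janus kinases and adaptors were all past the filter, 9 of 9, with a median difference of -0.0053 and a range of -0.13 to 0.32. Jak1, the main kinase bound to gp130, had 3092, 3148 and 3237 in hSOD1G93A against 3485, 3124 and 3178 in NonTG (difference -0.045, SE 0.077). Ptpn11, the phosphatase that links gp130 to the Ras pathway, differed by -0.041 (SE 0.070), and Jak3 was at the upper end (0.32, SE 0.22). The adaptors Grb2 and Sos1 differed by 0.13 (SE 0.10) and 0.19 (SE 0.19). None passed.

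Negative regulators had a median difference of 0.0085 over 12 genes. Stub1, a ubiquitin ligase, had 2555, 2475 and 2234 in hSOD1G93A against 2560, 2918 and 2952 in NonTG, without overlap by a narrow margin (difference -0.21, SE 0.092, limma adjusted p = 0.9997). Socs2 and Socs5, relatives of Socs3, differed by 0.36 (SE 0.23) and 0.20 (SE 0.13). The other STAT factors, Stat2, Stat5a and Stat5b, differed by 0.067, 0.045 and -0.15, all with overlap.

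Genes that Stat3 is known to induce were on the lower side in hSOD1G93A more often than not: 19 of the 24 tested had a difference below 0, with a median of -0.12, and 0 of 24 passed. Over all tested probe sets 48.0% were below 0. The list was chosen with earlier results of these data known, so the count is a description with no test. In 3 of the 24 all hSOD1G93A arrays lay below all NonTG arrays, as in 3.51% of all tested probe sets. Mcl1, which protects cells from apoptosis (1372520_at), had 2944, 3014 and 2974 in hSOD1G93A against 4104, 4058 and 3626 in NonTG (difference -0.40, SE 0.078), while a second probe set of the gene differed by 0.028 (SE 0.097). Icam1, an adhesion molecule, had 2154, 2050 and 2022 in hSOD1G93A against 2226, 2818 and 2381 in NonTG (difference -0.25, SE 0.10). The third was Serpina3n, a protease inhibitor, with signals that in hSOD1G93A lay under the filter level.

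Gfap, the astrocyte filament that Stat3 raises, differed by -0.12 (SE 0.070) and Vim, vimentin, by -0.10 (SE 0.070). The list value, the median over its genes of the log2 signal minus each gene's mean, was -0.11, 0.0093 and -0.046 in hSOD1G93A A, B and C against -0.063, 0.20 and 0.069 in NonTG A, B and C. The arrays overlap, with NonTG B highest. No cell type marker passed the test between the genotypes. Pericyte and smooth muscle markers were below 0 in 8 of 8 (median difference -0.25) and oligodendrocyte markers above 0 in 4 of 5 (median 0.63). The other lists had both signs. Above 0 were 5 of 8 neuron, 4 of 9 fibroblast and meningeal, 1 of 3 endothelial, 1 of 3 microglia and 5 of 9 astrocyte markers. The part of cell types in the values of the Stat3 targets was not tested. Icam1, Lcn2 and others of these genes are also known targets of NF-kB.

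In that list 2 of 24 genes were called for the letters, as 1.05% of all tested probe sets and Il6st 1370957_at were. Lcn2, lipocalin 2, an iron carrier of reactive astrocytes, had 962.3, 3999 and 2508 in hSOD1G93A A, B and C against 1186, 6413 and 2603 in NonTG A, B and C (limma adjusted p of the letters 0.00065). A2m, alpha-2-macroglobulin, had 5886, 9883 and 10340 in hSOD1G93A against 6484, 9864 and 8647 in NonTG (adjusted p = 0.017). Both are lowest under A in each genotype, while Il6st 1370957_at is lowest under C. The letter means of the other 3 Il6st probe sets, which were not called, are lowest under A. Cebpd, a C/EBP factor listed both as a Stat3 target and as an inducer of Il6, had 944.5, 1567 and 1418 in hSOD1G93A against 1045, 2982 and 1487 in NonTG and missed the threshold (adjusted p = 0.051).

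**Figure D4:**
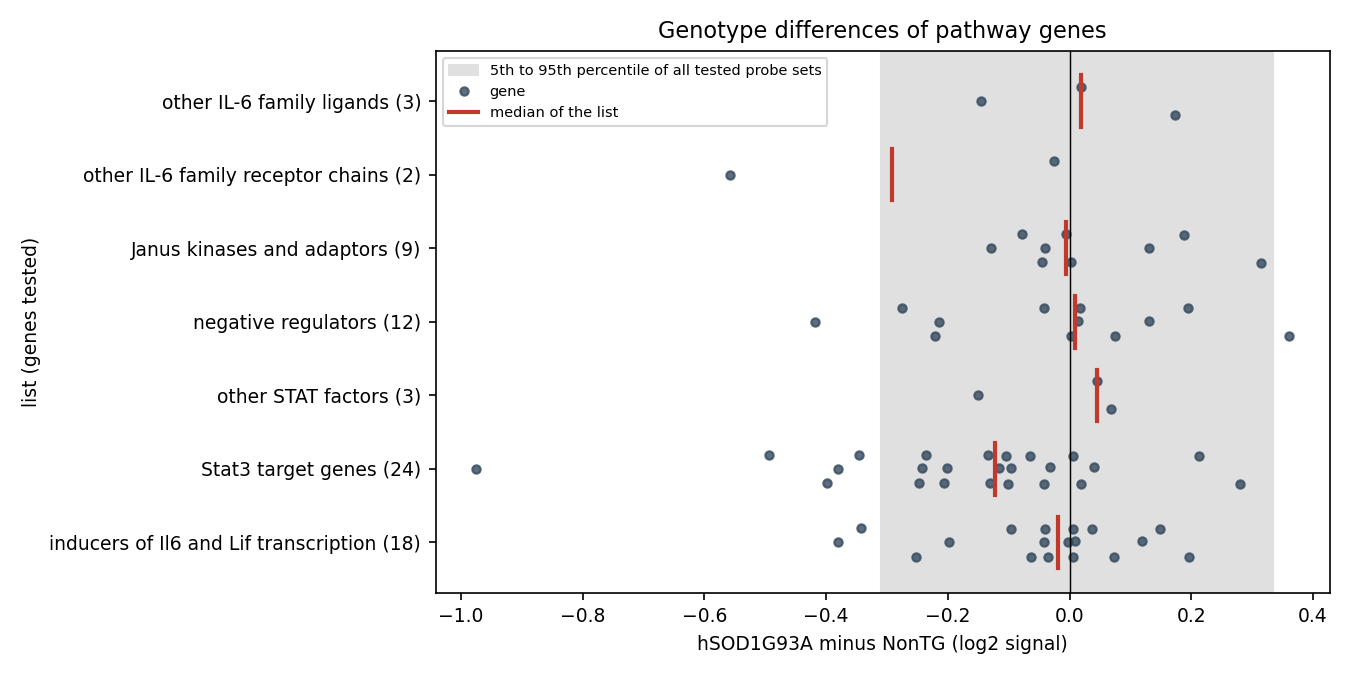
Genotype difference, hSOD1G93A minus NonTG in log2 signal (x axis), of the tested genes of the 7 pathway lists (y axis, number of genes in brackets), with a red line at each list's median and the 5th to 95th percentile of all tested probe sets in grey. Stat3 target genes have 19 of 24 points left of 0, and the Janus kinases and adaptors sit around 0. The lists were chosen with earlier results of these data known.

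For Il6, Lif, Socs3 and Stat3 the genes whose log2 signal ran most like theirs over the 6 arrays were taken from 10468 named genes, as a description with no test. For Il6 they were S100a6, a calcium-binding protein (Pearson r = 0.995, n = 6), Mgat2, an enzyme of glycan synthesis (r = 0.981), and Plk2, a kinase (r = 0.981). S100a6 had 8813, 7003 and 7298 in hSOD1G93A A, B and C against 7479, 9166 and 9760 in NonTG A, B and C, the same order of arrays as Il6 over a smaller range. For the dim Lif they were Bckdhb (r = 0.992), Tbc1d25 (r = 0.982) and Lcat (r = 0.980). For Socs3 they were Dpf2 (r = 0.999), Plgrkt (r = 0.985) and Nmnat2 (r = 0.976), and for Stat3 1370224_at they were Mn1 (r = 0.993), Traf3 (r = 0.991) and Cyrib (r = 0.970). All of these values share the 6 arrays.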

How the data were processed

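The deposited series table gives an intensity for each probe set on each array, a MAS5 signal that was not log-transformed; GCOS 1.4 and MAS5 are the tools the submitters' processing notes name. A mean trimmed by 2% at each end was 500.2 on all arrays. In its design text the series describes GC-RMA in ArrayAssist 4.0 and log values, which these deposited intensities are not. Control probe sets (57) were left out. Of 31042 others, 20826 had 1 gene symbol, 436 several and 9780 none, and genes were named from the first kind. The intensity was put on the log2 scale with no pseudocount.

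Genotypes were compared with limma 3.58.1 in R 4.3.3 (lmFit, eBayes with an intensity trend, two-sided), and the letters by a moderated F test beside genotype, both adjusted by Benjamini-Hochberg over 18625 probe sets at 0.05. The fits were also run on simulated data with independent errors, unlike the correlated same-letter arrays described below. The outcome is not given here, and no result rests on it. With 3 arrays a group precision is limited, and the median standard error was 0.16.

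The genotype differences, standard errors, intervals and p-values come from a fit without the letter, unless the replicate block is named. Letters were taken as pairing the arrays only in the within-letter differences, the replicate-block fits and the F test. The correlation of deviations from group means was 0.297, 0.254 and 0.199 between same-letter arrays and -0.277 to 0.025 between others. Deviations from a group mean cancel within the group, so the lower values between other letters follow in part from the same-letter ones.

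The members, pathway lists and markers were chosen with earlier results of these data known. From each pathway list the text names called genes, the 3 of smallest p and the 2 brightest (Cebpd through the inducers of Il6). Osm, Nfkb1, Rela and Nfkbiz fall outside this rule and were chosen after their values were seen. Zc3h12a and Zfp36 also fall outside it and are named to describe their list.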

Additional observations from a re-analysis of the deposited data

How the results depend on the processing

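Alternatives were the letter as a fixed or random replicate block, quantile normalization, a pseudocount of 16, no or a stricter filter (above a signal of 243.2), array weights, no intensity trend and leaving out each array. Under all of them 0 probe sets, and 0 pathway genes, were called for genotype. With the letter as a replicate block the smallest adjusted p of all tested probe sets was 0.151, against 0.400 without it, and over the alternatives run the members' smallest was 0.762 (without hSOD1G93A A). Il6 and Il11ra1 were lower in hSOD1G93A under each alternative run, by differences of -1.42 to -0.62 and -0.53 to -0.35. For Il11ra1 leaving out an array could not change the sign, since its groups do not overlap. The block, filter and trend settings leave a difference as it is and change only its error. The paired fit changed no call. Of 125 differences recomputed for the 9 tested probe sets, 10 changed sign, all of values near 0: Il6st 1370957_at with array weights (-0.11) and, leaving out arrays in turn, over -0.15 to 0.32; Il6st 1371926_at over -0.0092 to 0.035; Stat3 1370224_at over -0.19 to 0.055 and 1371781_at over -0.15 to 0.091; and Socs3 over -0.14 to 0.13. The members' median difference ranged from -0.15 to 0.019 when an array was left out. The count called for the letters, 195, was 110 without the filter, 0 without the intensity trend and 341 to 1009 leaving out arrays. The letter range of Il6st 1370957_at was 0.80 without the trend, where its call was lost (adjusted p = 0.342), and 0.69 to 0.90 leaving out arrays. Letter calls appeared for Il6 without hSOD1G93A A (range 1.58, adjusted p = 0.034) and for Il6st 1383489_at without NonTG C (0.86, adjusted p = 0.0046). The cause of these changes was not tested. Without a count of reads or a detection call, signals under 66.7 have no firm order.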

Other observations

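Genes listed as upstream of Il6 and Lif were mostly receptors and transcription factors that are known to raise them. The list also held Zc3h12a and Zfp36, which are not inducers (differences -0.0032 and 0.0064). Its median difference was -0.019 over the 18 tested of 21 on the array, with 10 below 0. In limma 0 were called (0 of all tested probe sets were called, and 474 had an unadjusted p below 0.05). Il1r1, the receptor for interleukin 1, a known inducer of Il6 in astrocytes, had 1682, 1903 and 1852 in hSOD1G93A against 1964, 2565 and 2401 in NonTG on its brightest probe set, without overlap (1392946_at, difference -0.34, SE 0.11, limma adjusted p = 0.9997). Of all tested probe sets 3.51% had hSOD1G93A wholly lower. A second Il1r1 probe set differed by -0.28 (SE 0.15) and the third by 0.16 (SE 0.17), so the probe sets did not share a sign. Creb1, which binds cAMP response elements, differed by 0.15 (SE 0.12) and Tnfrsf1a, a receptor for tumour necrosis factor, by -0.096 (SE 0.098). Nfkb1 and Rela, subunits of NF-kB, differed by 0.12 (SE 0.17) and 0.037 (SE 0.21). Nfkbiz, an NF-kB cofactor needed for Il6 transcription in mouse cells, had 187.0, 252.5 and 131.1 in hSOD1G93A A, B and C. In NonTG A, B and C it had 129.0, 308.0 and 133.7, so it was highest under B in both genotypes. Under B Il6 itself was low in hSOD1G93A and high in NonTG. The part of Nfkbiz in the Il6 values was not tested.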
